A study of Homo sapiens with 28 samples.

Results

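The effect of Senexin B on LNCaP cells kept without androgen was examined at 24 h. The libraries were chosen by treatment and time, as the 3 of cells given Senexin B and the 3 of cells given vehicle, both without R1881, which makes 6 of the 28 libraries of the series. LNCaP is an androgen-responsive human prostate cancer line, labelled here as wild type. All cells were kept for 72 h before treatment in medium whose serum had been stripped with charcoal, which removes steroid hormones. Vehicle was 0.1% DMSO and Senexin B was given at 1 µM per the labels, while the text of the study gives another dose. The further groups at 24 h, also of 3 libraries, received 0.1 nM R1881, a synthetic androgen, with or without Senexin B. Groups of 4 libraries at 72 h received vehicle, 500 nM SNX631, 1 nM R1881 or both. Whether the 24 h and 72 h libraries come from the same experiment is not given in the sources used here. The study describes its RNA-seq replicates as biological, and how the cultures were kept apart is not given in the sources used here, so the p-values measure the spread between these libraries.

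Senexin B and SNX631 inhibit CDK8 and CDK19, related kinases that together with cyclin C, MED12 and MED13 form the kinase module of Mediator. Mediator carries signals from transcription factors bound at enhancers to RNA polymerase II, and its kinase module binds reversibly and can promote or restrain transcription depending on the gene. Prostate luminal cells depend strongly on androgen, which sets the expression of many of their genes.

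The libraries had the profile of luminal prostate cells. Of 28 luminal marker genes, 26 exceeded 3 counts in at least 1 of the 6 libraries. The summed level of the list was 8134 to 8271 CPM with vehicle and 6926 to 7026 CPM with Senexin B. CPM are counts scaled to library size, with TMM factors for single genes and without them for summed levels of lists. In this list AMACR, a peroxisomal racemase used as a prostate cancer marker, rose from 58.4 ± 0.738 to 99 ± 3.54 CPM (SD, n = 3) and ACP3 fell, while 13 of 25 members tested were lower and 4 higher at an FDR under 0.05, a limit that 17.1 and 18.7% of all genes tested passed in these directions. The basal markers KRT5, KRT14, KRT15 and TP63 stayed at 0 counts, while the other 4 of the 8 basal markers exceeded 3 counts. The summed level of the basal list was 67.2 to 68.3 CPM with vehicle and 66.1 to 74.3 CPM with Senexin B, mainly from ITGA6, at 31.3 ± 1.83 and 31.7 ± 0.52 CPM, and DST, at 23.7 ± 0.51 and 29.9 ± 3.41 CPM (SD, n = 3), which encode an integrin and a cytoskeletal linker. The leukocyte markers PTPRC, CD3E, CD14 and ITGAM were at or under 3 counts, while 3 of the 10 leukocyte markers exceeded 3 counts. In RNA from whole cultures, fewer cells of a type and less RNA per cell cannot be told apart. Total counts ran from 11952051 to 13346723 with Senexin B and from 10219140 to 33809419 with vehicle, where replicate 3 was the deepest library of the series and the other 27 held at most 15248512. Replicates were close, and edgeR's common biological coefficient of variation was 2.72%.

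Senexin B changed 604 of 15948 genes, or 3.79%, by edgeR's quasi-likelihood test, with the limits of the study, an FDR below 0.01 and more than 1.5-fold change. Of these, 322 genes (2.02%) were higher and 282 (1.77%) lower than with vehicle. The called genes had a median log2 change of 0.81 in size, and 85 genes rose and 90 fell by more than 1 on the log2 scale. The median over all genes tested was 0.00047. Without the fold limit, 2984 genes (18.7%) were higher and 2733 (17.1%) lower at an FDR under 0.05. The Senexin B libraries lay wholly above or below the vehicle libraries for 595 of the 604 called genes, and this held for 7300 genes (45.8%) of those tested. Called genes had lower CPM than the rest, since the median vehicle level was 5.29 CPM for the higher and 4.76 CPM for the lower set against 21.4 CPM for all genes tested. Their median GC content was 48.13% for the higher and 49.18% for the lower set against 48.58% for all genes, and the median gene span was 32526, 22567 and 28412 bases. Leaving out 1 of the 6 libraries gave 507 to 575 called genes, and 340 of the 604 were called in the same direction in each of these fits.

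**Figure D1:**
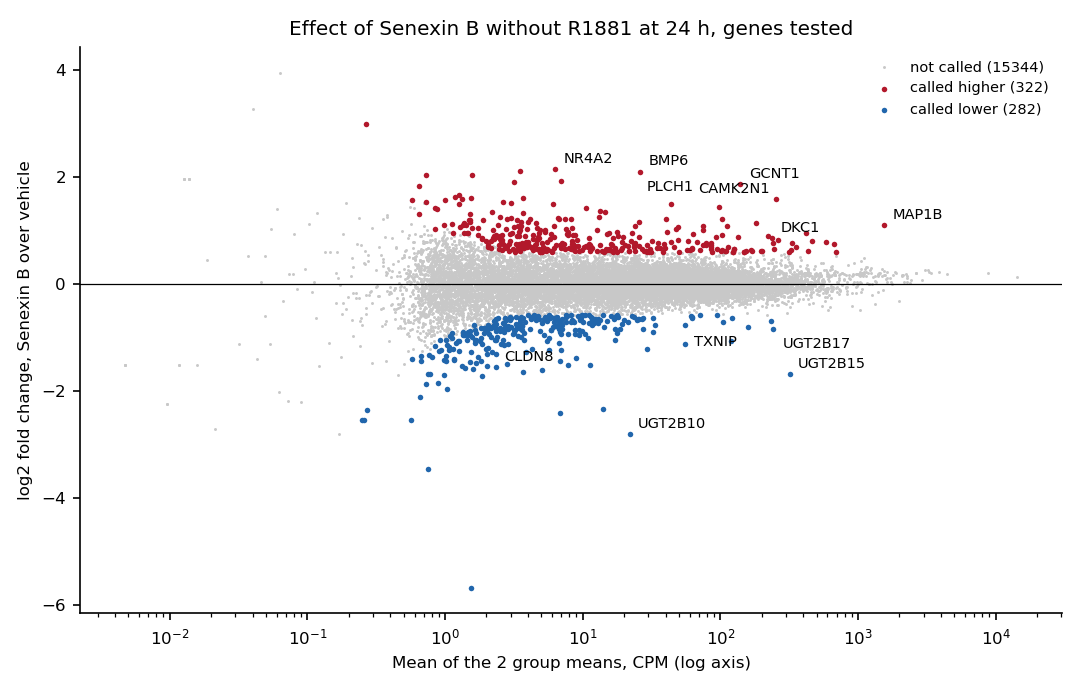
Log2 fold change (Senexin B over vehicle, y axis) against mean level in CPM (log x axis) for each of the 15948 genes tested, one point per gene. The 322 genes called higher (red) and the 282 called lower (blue) are found at low and at high levels, and UGT2B10 and UGT2B15 stand lowest among the more abundant genes named.

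Genes of the UGT2B family were among those that fell the most. They encode enzymes that join glucuronic acid to steroids and other lipids, and UGT2B15 and UGT2B17 inactivate androgens in prostate cells. UGT2B10 had 38.1, 36.8 and 40.2 CPM with vehicle and 5.83, 5.06 and 5.56 CPM with Senexin B. It fell 7.03-fold, a log2 fold change of -2.81 ± 0.1 (SE, FDR 6.64e-22). UGT2B15 had 485, 492 and 488 CPM with vehicle and 150, 151 and 155 CPM with Senexin B, a log2 fold change of -1.69 ± 0.046 (SE, FDR 2.02e-23). The groups lay far apart for both genes. UGT2B11 fell from 75.8 ± 2.06 to 35.2 ± 2.22 CPM (SD, n = 3), UGT2B17 from 308 ± 14.5 to 171 ± 2.41 CPM and UGT2B28 from 5.03 ± 0.123 to 2.43 ± 0.481 CPM. UGT2B28 falls outside the rule for named genes and was named after its values were seen. Not every member moved, and UGT2B7 and UGT2B4 had log2 fold changes of 0.45 (FDR 0.277) and 0.05 (FDR 0.892). The members are related genes of one family. Counting could divide reads that they share between them, so the level of each single member is uncertain.

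UGT2B10 (ENSG00000109181.12) occupies chromosome 4 from 68815993 to 68831196 (plus strand) and UGT2B15 (ENSG00000196620.10) from 68646630 to 68670628 (minus strand), in GRCh38 with GENCODE 29. The promoter windows of this pair, which among the named genes that fell had the largest change and the highest CPM, are shown from RefSeq (GRCh38.p14), from 250 bases before to 50 after the RefSeq gene start, at chr4:68815744-68816043 on the plus strand and chr4:68670603-68670902 on the minus strand. Capitals mark matches, on either strand, to TATAAA (a core promoter element), CCAAT (an element bound by NF-Y), GGGCGG (an element bound by SP1), CACGTG (an E-box), TGACGTCA (the cyclic AMP response element), TGANTCA (AP-1 element), AGAACA (steroid receptor element), TTCNNNGAA (STAT element) and TGTTTAC (forkhead element), none of which contains another.
UGT2B10: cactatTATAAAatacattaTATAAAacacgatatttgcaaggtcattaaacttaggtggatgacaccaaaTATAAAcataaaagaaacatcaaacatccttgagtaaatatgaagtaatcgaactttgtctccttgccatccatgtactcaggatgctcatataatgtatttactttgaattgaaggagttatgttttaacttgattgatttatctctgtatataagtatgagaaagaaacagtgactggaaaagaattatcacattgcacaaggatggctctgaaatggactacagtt
UGT2B15: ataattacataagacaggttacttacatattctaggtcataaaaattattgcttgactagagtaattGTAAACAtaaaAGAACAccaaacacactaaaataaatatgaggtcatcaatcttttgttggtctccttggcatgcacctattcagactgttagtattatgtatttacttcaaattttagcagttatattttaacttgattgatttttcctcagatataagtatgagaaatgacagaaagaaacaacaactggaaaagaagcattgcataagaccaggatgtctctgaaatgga
The UGT2B10 window held TATAAA at -244, -230 and -179 from the gene start, letters found in 12% of all 27305 RefSeq windows of this length. The UGT2B15 window held TGTTTAC at -183, found in 3.41% of windows, and AGAACA at -172, found in 14.9%. These matches describe the sequence and were not tested as sites. Windows were found for 71.4% of the genes called higher, 64.5% of those called lower and 68.6% of those tested, under 80% in each set, so a comparison of motifs between these sets would be void and none is given.

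Other steroid and lipid handling genes were few. In the steroid metabolism list, 1 of 27 members tested rose and 6 fell, with a median log2 fold change of -0.18, and 5 of the 6 were the UGT2B genes. The remaining one was SULT2B1, a sulfotransferase of sterols, at -0.87 ± 0.13 (SE, FDR 2.43e-06). HSD11B2, which oxidises cortisol to cortisone, rose by 0.65 ± 0.085. ABCA1, a cholesterol exporter, rose from 16.5 ± 1.09 to 28.6 ± 1.05 CPM. The sterol synthesis and uptake list had a median of -0.03 over 35 members, of which 2 rose and 0 fell (5.71% called). At an FDR under 0.05 without a fold limit, 7 of the 35 were higher and 14 lower. That limit was passed by 18.7 and 17.1% of all genes tested in these directions.

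The genes that rose the most included signalling genes of low to middle level. BMP6, a secreted ligand of the bone morphogenetic protein family, had 9.67, 9.74 and 10 CPM with vehicle and 41.1, 41.2 and 45.1 CPM with Senexin B. It rose 4.3-fold, a log2 fold change of 2.10 ± 0.1 (SE, FDR 2.24e-17). Among 45 members of the BMP and TGF-beta list, BMP6 and GDF15 were the 2 called, both higher, and the list's median was -0.09. GCNT1, which builds the core 2 branch of O-linked glycans, had 61.1, 60.1 and 59.4 CPM with vehicle and 220, 210 and 226 CPM with Senexin B, a log2 fold change of 1.86 ± 0.038 (SE, FDR 1.02e-26). GALNT10, which starts O-linked chains, rose from 245 ± 4.13 to 419 ± 13.3 CPM and FUT9, a fucosyltransferase, from 0.56 ± 0.244 to 1.95 ± 0.42 CPM. These were the 3 called among 32 genes of O-glycosylation and sialylation, whose median was -0.02. For BMP6, GCNT1, GALNT10 and FUT9, the lowest Senexin B library lay above the highest vehicle library. Libraries did not overlap for 595 of the 604 called genes and for 45.8% of all genes tested.

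BMP6 (ENSG00000153162.9) occupies chromosome 6 from 7726797 to 7881422 and GCNT1 (ENSG00000187210.14) chromosome 9 from 76419850 to 76651203, both on the plus strand (GENCODE 29). Their RefSeq windows, shown because both genes rose strongly with little spread between libraries, are chr6:7725849-7726148 and chr9:76393619-76393918 on the plus strand. The RefSeq starts lie upstream of the GENCODE starts.
BMP6: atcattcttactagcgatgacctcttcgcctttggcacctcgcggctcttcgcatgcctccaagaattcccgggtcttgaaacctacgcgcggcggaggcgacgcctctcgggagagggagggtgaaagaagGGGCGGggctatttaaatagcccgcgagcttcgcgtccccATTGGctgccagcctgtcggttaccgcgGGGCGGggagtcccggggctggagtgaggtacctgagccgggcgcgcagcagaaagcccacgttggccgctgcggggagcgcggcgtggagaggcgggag
GCNT1: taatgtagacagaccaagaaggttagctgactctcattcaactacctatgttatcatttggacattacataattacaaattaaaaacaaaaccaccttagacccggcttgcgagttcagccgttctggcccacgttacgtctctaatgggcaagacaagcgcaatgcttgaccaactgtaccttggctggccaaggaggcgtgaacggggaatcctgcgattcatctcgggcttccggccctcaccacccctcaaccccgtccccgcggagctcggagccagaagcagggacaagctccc
The BMP6 window held GGGCGG at -118 and -50 and CCAAT, on the minus strand, at -78, letters found in 44.6 and 35.7% of windows. The GCNT1 window held none of the motifs searched, which says only that those letters are not in these bases.

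NR4A2, an orphan nuclear receptor of the immediate-early class, had 2.16, 2.33 and 2.36 CPM with vehicle and 11.1, 9.7 and 9.98 CPM with Senexin B. At 4.43-fold it had the largest rise among the named genes (log2 fold change 2.15 ± 0.16, SE, FDR 8.97e-13). RXFP3, a relaxin-family peptide receptor, rose 4.3-fold from 1.31 ± 0.227 to 5.71 ± 0.7 CPM, and PREX2, an exchange factor for Rac, 4.12-fold from 0.572 ± 0.107 to 2.57 ± 0.518 CPM. In the immediate-early list, 3 of 28 members rose and 1 fell. KLF5, an epithelial Krüppel-like factor, was the one that fell, from 8.93 ± 0.171 to 4.81 ± 0.473 CPM. MYC rose from 249, 250 and 255 CPM to 366, 393 and 383 CPM, a log2 fold change of 0.60 ± 0.032 (SE, FDR 1.53e-15), just past the fold limit, and at 0.58 it was under that limit without Senexin B replicate 2. The MYC network list had a median of 0.03, and MYC was its 1 called member of 16.

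Calcium and phosphoinositide signalling had 3 members that rose and 2 that fell among 44. PLCH1, a phospholipase C, had 23.5, 20.2 and 24.5 CPM with vehicle and 67.3, 64 and 65.2 CPM with Senexin B, a 2.84-fold rise. CAMK2N1, an inhibitor of CaM kinase II, rose from 52.8 ± 2.16 to 143 ± 8.2 CPM, or 2.69-fold (edgeR FDR 1.69e-19), and CAMKK1, a kinase upstream of the CaM kinases, by 1.59-fold. Among the called genes with the highest CPM, MAP1B, a microtubule-associated protein, had 978, 985 and 987 CPM with vehicle and 2213, 2056 and 2059 CPM with Senexin B, a log2 fold change of 1.10 ± 0.043 (SE, FDR 4.01e-19). MIA3, which loads collagens for export from the endoplasmic reticulum, rose 1.51-fold, BDP1, a subunit of an RNA polymerase III initiation factor, 1.68-fold, FGFRL1, an FGF receptor-like protein, 1.72-fold and ENDOD1 1.75-fold. TXNIP, which binds thioredoxin and restrains glucose uptake, fell from 201, 213 and 199 CPM to 121, 119 and 108 CPM, a log2 fold change of -0.81 ± 0.045 (SE, FDR 1.97e-15). GULP1 fell 1.62-fold and TANC1 1.55-fold. Among the low genes that fell, CLDN8, a tight-junction claudin, dropped 2.93-fold from 3.5 ± 0.207 to 1.21 ± 0.102 CPM, AQP3, a water channel, 2.89-fold and the potassium channel gene KCNH6 2.89-fold.

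**Figure D2:**
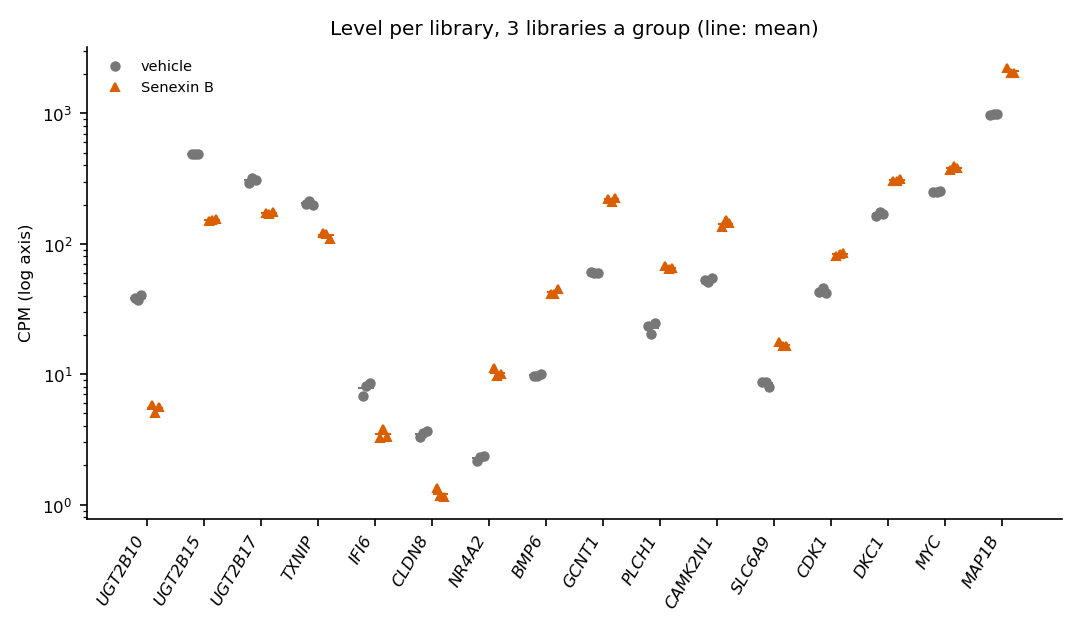
Level in CPM (log y axis) of 16 named genes in the 3 vehicle libraries (grey circles) and the 3 Senexin B libraries (orange triangles), with a line at each group's mean. No vehicle library overlaps a Senexin B library in any of these genes, and UGT2B10 has the widest gap, from 36.8 CPM in the lowest vehicle library to 5.83 CPM in the highest Senexin B library. The 16 were taken from the called genes, of which 595 of 604 do not overlap, against 45.8% of all genes tested.

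Genes of amino acid transport and synthesis were higher with Senexin B. Of 45 members tested among the targets of ATF4, a transcription factor of the amino acid response, 10 rose and 0 fell, with a median log2 fold change of 0.34. At an FDR under 0.05 without a fold limit, 37 were higher and 1 lower. The mean of the list lay between 0.38 and 0.39 above the vehicle mean in the 3 Senexin B libraries, in log2 of CPM plus 0.5. SLC6A9, a glycine transporter, had 8.73, 8.68 and 8.05 CPM with vehicle and 17.6, 16.4 and 16.4 CPM with Senexin B, a 2.01-fold rise. CHAC1, which degrades glutathione, rose 2.5-fold from 2.13 ± 0.0287 to 5.29 ± 0.709 CPM, and STC2, a secreted glycoprotein, 1.96-fold from 27.8 ± 2.62 to 54 ± 2.38 CPM. ATF4 itself was at 244 ± 3.63 CPM with vehicle and 345 ± 5.85 CPM with Senexin B, a log2 difference of 0.50 (edgeR FDR 4.75e-12), under the fold limit. ATF4 is outside the rule for named genes and was named after its values were seen.

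The chaperones of the endoplasmic reticulum showed no such rise. In that list, 1 of 48 members rose, 0 fell, and the median was -0.04. The 1 gene was XBP1, a transcription factor of the unfolded protein response, which rose from 134 ± 3.95 to 204 ± 3.59 CPM, a log2 fold change of 0.62 ± 0.037 (SE, FDR 1.4e-14). Abundant chaperones, also named after their values were seen, had negative log2 fold changes under the fold limit, at -0.42 for HSPA5 (FDR 5.74e-12), -0.44 for HSP90B1 (FDR 2.57e-13) and -0.41 for CALR (FDR 1.29e-12).

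Genes of the cell cycle and of ribosome production were higher in small steps. In DNA replication and nucleotide supply, 13 of 60 members rose and 0 fell (median 0.34), and in mitosis 13 of 70 rose and 0 fell (median 0.39). CDK1, the mitotic cyclin-dependent kinase, had 43, 45.7 and 42 CPM with vehicle and 80.7, 83.9 and 85.2 CPM with Senexin B, a log2 fold change of 0.94 ± 0.051 (SE, FDR 1.18e-15). CDC6 and MCM10, which license and start replication origins, rose 2.07-fold and 2.04-fold, and CDC45, a part of the replicative helicase, 2.02-fold. The Senexin B libraries varied for some members, with CDC6 at 8.93, 13.8 and 11.5 CPM and NCAPG, a condensin subunit, at 5.61, 8.29 and 4.73 CPM against 3.47, 3.46 and 3.33 CPM with vehicle for NCAPG. The mean of the mitosis list in the Senexin B libraries lay 0.32 to 0.44 above the vehicle mean, and the vehicle libraries ran from -0.09 to 0.07. Among G1 cyclins and CDK inhibitors, 0 of 25 rose and 2 fell. CDKN2C, an inhibitor of CDK4 and CDK6, was one of them at -0.66 ± 0.14 (SE, FDR 0.000195), and at -0.53 it was under the fold limit without Senexin B replicate 3. CDKN2B, the other, was at -0.98 (FDR 0.00901), which fell short of the FDR limit without vehicle replicate 2 (-0.96, FDR 0.0223) or 3 (-0.86, FDR 0.083) and without Senexin B replicate 2 (-0.84, FDR 0.0564) or 3 (-0.85, FDR 0.0581).

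In ribosome biogenesis, 5 of 73 members rose and 0 fell (median 0.26), while 58 were higher at an FDR under 0.05. Without Senexin B replicate 2 the 5 became 3. DKC1, which modifies ribosomal RNA and stabilises telomerase RNA, had 164, 175 and 170 CPM with vehicle and 305, 304 and 314 CPM with Senexin B, a log2 fold change of 0.86 ± 0.034 (SE, FDR 5.24e-19). WDR75, a processing factor of the small subunit, rose 1.65-fold. Of the 79 cytosolic ribosomal protein genes, 0 passed the fold limit but 77 were higher at an FDR under 0.05, with a median of 0.18 on the log2 scale. RPL4 was at 2926 ± 55.8 CPM with vehicle and 3507 ± 89 CPM with Senexin B. With counts scaled to library totals in place of TMM, the median of all genes moved to -0.038, and the medians of these lists stayed above 0, at 0.14 for the ribosomal proteins.

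Interferon-induced genes were lower. Of 40 interferon-induced genes tested, 0 rose and 7 fell, the median log2 fold change was -0.29, and 19 were lower and 2 higher at an FDR under 0.05. Without Senexin B replicate 2 the 7 became 4. IFI6, an interferon-induced membrane protein, had 6.85, 8.11 and 8.59 CPM with vehicle and 3.25, 3.82 and 3.28 CPM with Senexin B, a 2.35-fold drop (edgeR FDR 5.56e-08). IFIT2, which binds viral RNA, fell 2.32-fold from 2.82 ± 0.41 to 1.17 ± 0.356 CPM. In antigen presentation, 0 of 19 members rose and 3 fell, all of them genes of the class II pathway, and without vehicle replicate 3 the 3 became 1. HLA-DMB, which loads peptides on class II molecules, fell from 4.14 ± 0.546 to 2.22 ± 0.49 CPM. Of the 10 leukocyte markers, 7 were at or under 3 counts and 3 exceeded 3 counts. CD68 was among the latter, at 0.96 ± 0.0902 CPM with vehicle and 1.04 ± 0.247 CPM with Senexin B (SD, n = 3). The summed level of the leukocyte list was 1.51 to 1.76 CPM with vehicle and 1.39 to 1.84 CPM with Senexin B.

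**Figure D3:**
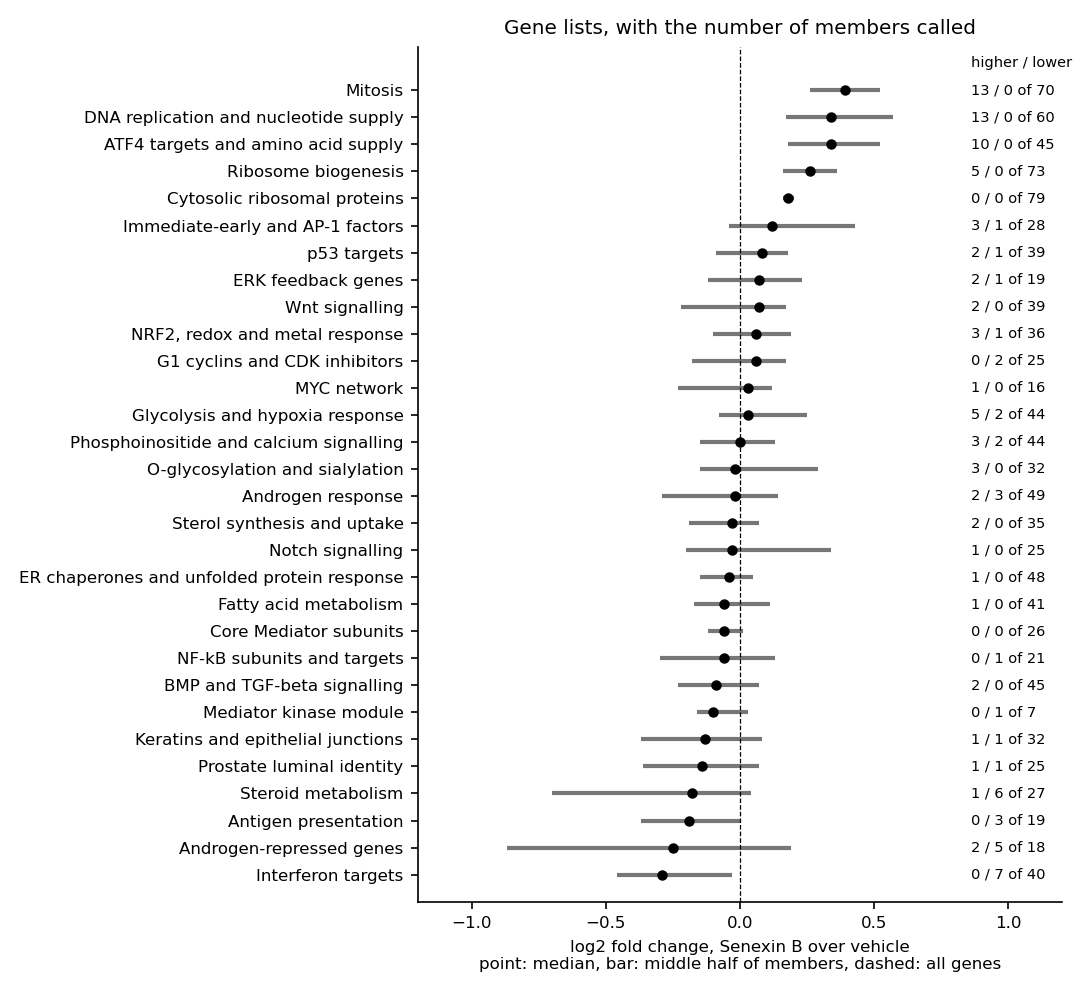
Log2 fold change (Senexin B over vehicle, x axis) of 30 gene lists, each with a point at the median of the members tested, a bar over the middle 50% of members and, at the right, the number called higher and lower of those tested. Mitosis lies highest at 0.39 and interferon targets lowest at -0.29, and the dashed line marks the median of all genes.

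**Figure D4:**
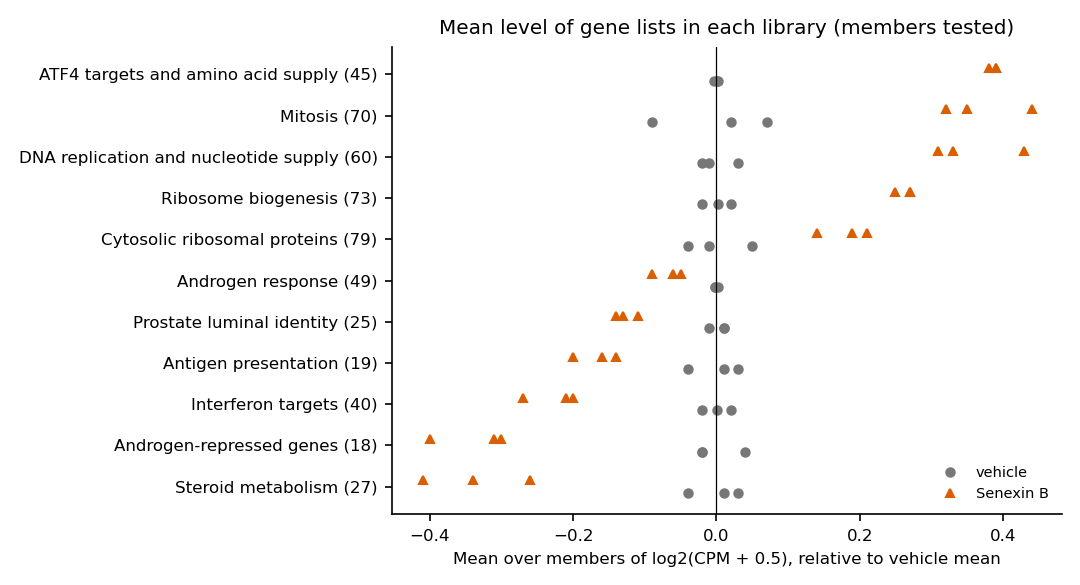
Mean level of 11 gene lists in each library, as the mean over members of log2(CPM + 0.5) relative to the vehicle mean (x axis), with vehicle libraries as grey circles and Senexin B libraries as orange triangles. The 3 Senexin B libraries lie on one side of the vehicle libraries in each list shown, from the ATF4 list at 0.38 to 0.39 down to steroid metabolism at -0.41 to -0.26.

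Without androgen, 10.2% of the androgen-responsive genes tested were called, against 3.79% of all genes tested. Of 49 genes tested from a list of genes known to be induced by androgen, 2 rose and 3 fell, with a median of -0.02. At an FDR under 0.05 without a fold limit, 9 were higher and 16 lower. Of all genes tested, 18.7% were higher and 17.1% lower at that limit. The mean of the list was -0.09 to -0.05 in the Senexin B and -0.0014 to 0.0026 in the vehicle libraries, in log2 of CPM plus 0.5 relative to the vehicle mean. R1881 alone at 72 h, against the vehicle group at 72 h, raised 46 of the 49 and lowered 1, which was ACP3. ENDOD1 rose from 338 ± 2.44 to 590 ± 2.03 CPM and KCNN2, a potassium channel, from 28.9 ± 0.672 to 48.8 ± 1.4 CPM. ACP3, prostatic acid phosphatase, fell from 39.6 ± 1.54 to 25.4 ± 0.559 CPM, and with R1881 alone it was at -1.83 on the log2 scale. C1orf116, named after its values were seen, fell from 130 ± 3.12 to 79 ± 1.58 CPM (log2 fold change -0.72, edgeR FDR 3.54e-15). With R1881 alone C1orf116 was at 2.21. CHRNA2, a nicotinic receptor subunit, held 26 counts over the vehicle and 3 over the Senexin B libraries, a ratio of 0.179 after scaling (exact 95% counting interval 0.0346 to 0.583, which covers counting error only), and its call was lost without vehicle replicate 1 or 2 or Senexin B replicate 2 or 3 (log2 fold change -2.39 to -1.81, edgeR FDR 0.0104 to 0.0462). KLK3, which encodes prostate-specific antigen and was named after its values were seen, was at 1.44 ± 0.292 CPM with vehicle and 0.954 ± 0.0395 CPM with Senexin B (log2 fold change -0.69, FDR 0.0318, not called). Of 18 genes tested from a list of genes known to be repressed by androgen, 2 rose and 5 fell (38.9%), with a median of -0.25. R1881 alone at 72 h lowered 15 of the 18 and raised 2. The 5 that fell with Senexin B are the UGT2B genes described above, of which UGT2B28 was at 0.61 with R1881 alone, and CAMK2N1 and OPRK1 rose.

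The kinase module itself changed little. CDK8 had 51.8, 46.2 and 50.5 CPM with vehicle and 63.8, 61.7 and 65 CPM with Senexin B, a log2 fold change of 0.36 ± 0.053 (SE, FDR 3.07e-06). CDK19 had 301, 296 and 304 CPM with vehicle and 337, 328 and 337 CPM with Senexin B, a log2 fold change of 0.15 ± 0.032 (SE, FDR 0.000319). Both were higher in each Senexin B library but under the fold limit. CCNC (-0.15, FDR 0.0173), MED13L (-0.17, FDR 0.0209), MED12 (-0.09, FDR 0.106) and MED13 (-0.10, FDR 0.0635) were not called. MED12L fell from 5.8 ± 1 to 3.64 ± 0.185 CPM (-0.60, FDR 0.00454), a call lost without vehicle replicate 1 (-0.50, FDR 0.0212) or any Senexin B library (-0.63 to -0.55, FDR 0.0133 to 0.0281). Of 26 core Mediator subunits, edgeR called 0, and 2 were higher and 3 lower at an FDR under 0.05.

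The collagen gene COL3A1 rose from 4.47 ± 0.578 to 10.5 ± 0.235 CPM and another, COL1A1, fell from 23.3 ± 1.17 to 11.3 ± 0.945 CPM. Both are in the list of fibroblast and endothelial markers, whose COL1A2, DCN, PDGFRA, PECAM1 and CDH5 were at or under 3 counts, and the summed level of that list was 30.7 to 34.2 CPM with vehicle and 24.2 to 25.7 CPM with Senexin B. Among p53 targets, GDF15, a stress-induced cytokine, and PMAIP1, a pro-apoptotic BCL2-family protein, both rose 2.13-fold and TP53I3 fell 1.62-fold, while the 39 members had a median of 0.08. In the redox and metal response list, GCLC, the catalytic subunit of the rate-limiting enzyme of glutathione synthesis, rose from 91.3, 95.8 and 97.3 CPM to 178, 171 and 173 CPM, a log2 fold change of 0.87 ± 0.039 (SE, FDR 7.42e-18). In the glycolysis and hypoxia list, 5 of 44 members rose and 2 fell, or 15.9% against 3.79% of all genes tested, with a median of 0.03. Among them BHLHE40, a transcriptional repressor, rose 1.77-fold and TXNIP, described above, fell. Of 19 ERK feedback genes, 2 rose and 1 fell (15.8%), with a median of 0.07. Each of these calls was lost without vehicle replicate 3. EPHA2 was then at 0.60 (edgeR FDR 0.0107), DUSP5 at 0.48 (edgeR FDR 0.092) and DUSP10 at -0.56, under the fold limit. The lists for NF-kB (4.76% called), Wnt (5.13%), Notch (4%) and fatty acid metabolism (2.44%) lay nearer to the share over all genes, with medians from -0.06 to 0.07. At an FDR under 0.05, 7 of 41 fatty acid members were higher and 16 lower. The same counts were 3 and 5 of 21 for NF-kB, 10 and 10 of 39 for Wnt and 8 and 6 of 25 for Notch. That limit was passed by 18.7 and 17.1% of all genes tested in these directions.

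A further question was whether the same genes responded when R1881 was present. With R1881, Senexin B called 257 genes higher (1.61%) and 240 lower (1.5%) in the same fit. Of the 322 genes that rose without R1881, 96 also rose with it, which is 29.8% of the former and 37.4% of the latter list. Of the 282 that fell, 102 also fell, or 36.2 and 42.5% of the lists, and 3 genes were called in opposite directions. UGT2B10 and UGT2B15 fell in both settings, by -2.81 and -1.69 without R1881 and by -2.13 and -1.10 with it on the log2 scale. TXNIP had -0.81 without and -0.82 with R1881. The difference between the effects, tested as an interaction, was called for 92 genes (0.577%), with 39 higher and 53 lower under R1881, and 47 of the 92 were among the 604.

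GCLC rose without R1881 (0.87) and was at -0.01 with it, a difference of -0.88 ± 0.071 (SE, FDR 2.41e-10). TMEFF2, a transmembrane protein of prostate and brain, rose from 23.7 ± 1.57 to 56.2 ± 2.79 CPM without R1881 and had a log2 fold change of 0.08 with it, a difference of -1.13 ± 0.08 (SE, FDR 2.05e-11). DKC1 went from 0.86 to 0.16 and MAP1B from 1.10 to 0.43, differences of -0.69 and -0.67. GCNT1 went from 1.86 to 1.21, a difference of -0.65 ± 0.055 (SE, FDR 7.63e-10). In the other direction, PLCH1 rose by 1.50 without and 2.16 with R1881, a difference of 0.66 ± 0.094 (SE, FDR 1.63e-05), which was 0.56 and under the fold limit without vehicle replicate 3. The list counts were 13 of 60 without and 0 of 60 with R1881 for DNA replication, 13 and 1 of 70 for mitosis, 10 and 2 of 45 for ATF4 targets, and 7 and 4 of 40 lower for interferon targets. The medians of these lists with R1881 were 0.21, 0.13, 0.21 and -0.20, and the difference of a list between settings was not tested.

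A further comparison set Senexin B beside SNX631, which was given without R1881 at 500 nM for 72 h. Compound, dose and time differ at once, as the experiment may, and these cannot be told apart. SNX631 raised 454 of 16074 genes (2.82%) and lowered 312 (1.94%). Among the 15681 genes tested in both, 160 rose with each, which is 51% of the Senexin B and 36% of the SNX631 list. The genes that fell with each numbered 133, or 48.4 and 45.5% of the lists, and 0 were called in opposite directions. UGT2B10 was at -2.43, UGT2B15 at -1.64, BMP6 at 2.33, GCNT1 at 1.65, NR4A2 at 1.89 and MAP1B at 1.10 with SNX631 on the log2 scale. In a fit of all libraries, the SNX631 effect differed from that of Senexin B for 79 of 16672 genes (0.474%), 11 of them among the 604. SLC6A9 had 1.01 with Senexin B and 0.05 with SNX631, a difference of -0.96 ± 0.14 (SE, FDR 5.46e-06). CDK1 rose with both, by 0.94 and 1.36. The mitosis list had 13 of 70 members called higher with Senexin B and 63 of 70 with SNX631, and DNA replication 13 and 43 of 60. The ATF4 list had 10 of 45 with Senexin B and 0 with SNX631, with medians of 0.34 and 0.10.

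**Figure D5:**
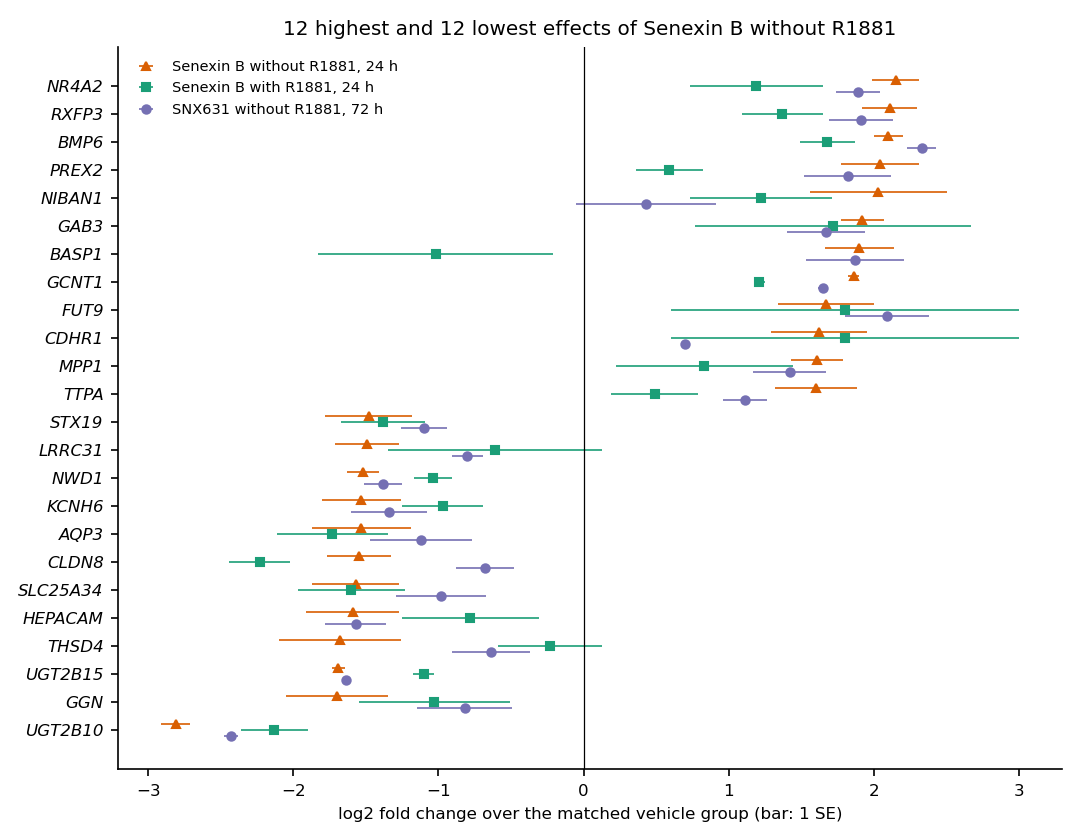
Log2 fold change over the matched vehicle group (x axis) with bars of 1 SE for the 12 highest and 12 lowest named genes, for Senexin B without R1881 at 24 h (orange triangles), Senexin B with R1881 at 24 h (green squares) and SNX631 without R1881 at 72 h (purple circles). The genes were ranked on the orange values. BASP1 alone has opposite signs, at 1.90 without and -1.02 with R1881 (FDR 0.328 for the latter), and the point for CDHR1 under SNX631 has no bar because its SE could not be computed.

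R1881 alone at 72 h shares no library with the Senexin B comparison and was set beside it as a reference for androgen-responsive genes. R1881 raised 1559 genes (9.7%) and lowered 1626 (10.1%). Of the genes that rose with Senexin B and were tested in both, 98 of 314 rose and 65 fell with R1881, or 31.2 and 20.7%. Of the 275 that fell, 46 rose and 85 fell with R1881, or 16.7 and 30.9%. UGT2B10 and UGT2B15 were lower with R1881 as well, at -2.09 and -2.18 on the log2 scale, and UGT2B17 at -1.42. CAMK2N1 rose by 1.43 with Senexin B and was at -3.44 with R1881, and CLDN8 fell by 1.55 with Senexin B and was at 2.34 with R1881.

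Of the 102 named genes, 101 were found in GENCODE 29, and 46 have a gene on the opposite strand that overlaps them. Whether counting used strand is not given in the sources used here, so reads of GCNT1, MAP1B, PLCH1, GCLC, UGT2B11, IFI6, IFIT2, SLC6A9, CDK8, CDK19 and TMEFF2 cannot be told apart from reads of such a partner.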

How the data were processed

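RNA of LNCaP cells was sequenced from directional libraries per the labels. The submitters' processing notes name FastQC, cutadapt 2.8, STAR 2.7.2b and featureCounts of Subread 2.0.3, with the builds GRCh38.p13 and GRCm39, and the annotation release and the use of strand in counting are not given in the sources used here. One table of unscaled expected counts per gene was deposited by the authors, in which 16.87% of values above 0 had a fractional part. The 2 added entries that are no human gene held 0 counts and were left out, and 58217 of 61815 genes matched GENCODE 29 by identifier without version.

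Counts were rounded and fitted in R 4.3.3 with edgeR 4.0.16 (TMM factors, a filterByExpr filter at 10 counts in a library and 15 in total, quasi-likelihood fit and test) over the 12 libraries at 24 h, the 16 libraries at 72 h, or all 28 for the difference between compounds. Benjamini-Hochberg adjustment ran over each contrast's tested genes, and calls needed an FDR below 0.01 with more than 1.5-fold change. SE are Wald errors of the same fit. The floor of 3 counts equals 0.0887 to 0.2936 CPM with vehicle and 0.2248 to 0.251 CPM with Senexin B, and floors and intervals cover counting error only. No pair of replicates agreed within sampling noise. The pipeline was tested on simulated data.

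Groups were taken from the labels. The 34 gene lists and the libraries compared were chosen with earlier results of these data known. Named genes were the 12 highest and 12 lowest called genes with a symbol that are no clone or pseudogene and reach 1 CPM in the higher group, the 5 most abundant called in each direction, up to 3 called members a list (or the lowest FDR), the kinase module, and the 5 largest interactions among genes called for both, 102 in all. Values of 2 genes are not reported here. Alternatives were other scalings, DESeq2 1.42.0 (Wald test), other filters and limits, other sets of libraries, a replicate block and leaving out each library. For the interaction and the shared calls, DESeq2 size factors and thinning to the smallest total were chosen after seeing the data, as were library totals, the block and leaving out libraries for the difference between compounds. Python 3.11.15 with matplotlib 3.10.9 drew the figures.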

Additional observations from a re-analysis of the deposited data

Results flagged for a closer look

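The effect of Senexin B differed with and without R1881, by the interaction test in edgeR at an FDR under 0.01 and a fold over 1.5, for 14 named genes. This count is partly set by the naming rule, which took up genes for a large interaction. CNTNAP3, ENSG00000287499, MARCHF3 and TMEFF2 were named on that ground alone, and MED12L on that ground among others. Over all genes tested, the interaction was called for 0.577%. The difference (log2 fold change with R1881 minus without) was -0.65 for GCNT1, -0.67 for MAP1B, -0.63 for ENDOD1, -0.69 for DKC1, -0.84 for CDC6, -0.78 for NCAPG, -0.88 for GCLC, -1.13 for TMEFF2 and -1.41 for the unnamed gene ENSG00000287499. ENSG00000287499 had 0.73 without R1881 and -0.68 with it. The difference was 0.66 for PLCH1, 0.75 for DTX4, 1.22 for MED12L, 1.36 for MARCHF3 and 1.60 for CNTNAP3. MED12L and CNTNAP3, the latter a cell adhesion protein of the neurexin family, were lower with Senexin B without R1881 (-0.60 and -0.62) and higher with it (0.62 and 0.98). The call of CNTNAP3 without R1881 was lost without vehicle replicate 1 (-0.58, FDR 0.0101) or Senexin B replicate 1 (-0.57, FDR 0.021) or 2 (-0.46, FDR 0.0432), and that of ENSG00000287499 without vehicle replicate 1 or 2 or Senexin B replicate 2 or 3 (0.57 to 0.78, edgeR FDR 0.0121 to 0.0801).

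Some of these differences were close to the limits and lost the call when a library was left out. The difference for NCAPG lost its call in 6 fits, at -0.74 (FDR 0.067) without vehicle replicate 3, -0.55 (FDR 0.075) without Senexin B replicate 2, and -0.80 to -0.73 (edgeR FDR 0.0103 to 0.0127) without vehicle replicate 1 or 2 or replicate 1 or 3 of Senexin B with R1881. DTX4 and MARCHF3 lost the call in most fits that left out a library, with differences of 0.63 to 0.81 and 1.17 to 1.39 and an edgeR FDR up to 0.0677 and 0.0531. PLCH1 was at 0.56 (FDR 0.00092), under the fold limit, without vehicle replicate 3, the deepest library. Thinned to the smallest total, NCAPG, DTX4, MARCHF3 and ENSG00000287499 were not called (edgeR FDR 0.0204 to 0.0511).

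The effect of SNX631 at 72 h minus that of Senexin B at 24 h, tested in a fit of all libraries, was -0.96 for SLC6A9 and 0.78 for CDKN2C. Compound, dose, time and any difference in experiment cannot be told apart here. The call for CDKN2C was lost without vehicle replicate 2 or 3, Senexin B replicate 1 or 3 or SNX631 replicate 2 (0.64 to 0.77, edgeR FDR 0.0107 to 0.0359).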

How the results depend on the processing

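Loosening the FDR limit and dropping the fold limit together moved the counts most. At an FDR below 0.05 and any fold, 5717 genes were called, 2984 higher and 2733 lower, with 608 list members, and the calls shared with Senexin B under R1881 were 1859 higher and 1526 lower, with SNX631 1916 and 1768, and with R1881 alone 1274 (higher in both), 798 (higher and lower), 896 (lower and higher) and 1053 (lower in both). A test against a fold of 1.5 left 134 genes, 88 higher and 46 lower, 48 named genes and 32 list members. A minimum count of 50 left 163 genes called lower, since 179 called genes were then not tested. Leaving out each library gave 507 to 575 called genes, 286 to 325 higher and 211 to 250 lower, 77 to 88 named genes, 96 to 111 list members, 11 to 14 named interactions and 1 to 3 named genes differing between compounds (1 without vehicle replicate 3 or SNX631 replicate 2). The low leukocyte marker CD68, at 0.14 and not called, ran from -0.05 (without Senexin B replicate 2) to 0.25. No called gene changed sign under any alternative run. DESeq2 size factors gave 600, library totals 601 (264 higher, 337 lower) and the Wald test of DESeq2 473 genes. No clear pairing by shared replicate number was seen, though with 3 libraries a group the check cannot establish that the libraries were unpaired. Deviations of vehicle and Senexin B libraries with the same number had correlations of 0.0609, 0.0099 and -0.00318 over 11787 genes, and those numbered 2 and 3 did not correlate best with their own number. The replicate block gave 612 called genes, 325 higher and 287 lower, with 89 named genes, 105 list members and 14 named interactions. Depth limits the low genes, and 470 of the 604 calls were kept after thinning to the smallest total.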

Other observations

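Several abundant genes with narrow spread fall outside the rule and were chosen after their values were seen. EFNA5, a membrane-bound ephrin ligand, had 121, 131 and 126 CPM with vehicle and 374, 386 and 374 CPM with Senexin B, a log2 fold change of 1.59 ± 0.035 (SE, FDR 9.57e-26), and was at 1.06 with Senexin B under R1881 and at 1.28 with SNX631. TARS1, which charges tRNA with threonine, rose from 284 ± 0.835 to 553 ± 10.5 CPM (SD, n = 3). SHOC2, a scaffold of the RAS and RAF pathway, rose from 156 ± 3.12 to 290 ± 8.06 CPM. ADRA2A, an alpha-2 adrenergic receptor, rose from 113 ± 3.66 to 249 ± 5.45 CPM, a log2 fold change of 1.14, and was at 0.23 under R1881. The histone gene H2BC21 fell from 161 ± 4.07 to 76.7 ± 1.04 CPM and the variant histone gene H2AZ1 rose from 270 ± 11.1 to 435 ± 12 CPM.

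Transcripts that are not protein coding were among those that fell. The genes given in this paragraph fall outside the rule and were chosen after their values were seen. LINC00161 fell from 11.5 ± 0.232 to 2.18 ± 0.373 CPM (log2 fold change -2.41, edgeR FDR 3.59e-14) and HMGN2P46 from 23.3 ± 1.02 to 4.63 ± 1.28 CPM (-2.33, edgeR FDR 2.22e-16). ENSG00000259354 held 188 counts over the vehicle and 2 over the Senexin B libraries, a ratio of 0.0165 after scaling (exact 95% counting interval 0.00198 to 0.0604). ADAMTS12, a secreted metalloprotease, held 3 and 18 counts, a ratio of 9.29 (2.71 to 49.2), with at most 6 counts in any of these libraries. Transcripts that are not protein coding made up 18.3% of the genes called higher, 18.3% of those called lower and 17.6% of those tested. The intervals cover counting error only.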
